A study of Homo sapiens with 16 samples.

Results

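The promoters of 38 genes of the T cell and natural killer (NK) cell lineages were examined in GM12878, a B cell line. The genes were listed by function, and a promoter was taken for each row of the promoter tables that carried a listed gene symbol. This found 37 promoters of 37 genes among the 21857 promoters of the series; KLRC1 was not analysed here. By role they were 7 genes of the T cell receptor complex and its co-receptors, 9 of adhesion, costimulatory and inhibitory receptors, 6 of proximal signalling, 2 transcription factors, 8 of the cytotoxic granule and 6 NK receptors, with KLRC1 among the last.

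GM12878 is a human B-lymphoblastoid line immortalized with Epstein-Barr virus, and all samples come from this 1 line. Cells were stimulated with heat-killed Salmonella typhimurium (HKST) for 20, 40 or 60 min or left untreated, and were then cross-linked. Nuclei of every group were digested with 20 U (light) or 200 U (heavy) of micrococcal nuclease (MNase), in 2 replicates, which gives 16 samples. Mononucleosomal DNA was enriched for the 2 kb around annotated transcription start sites (TSSs), and each of the 8 deposited tables pools both replicates of a time point and digest.

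T cells and NK cells recognise other cells through surface receptors, relay the signal through a short chain of kinases and adaptors, and kill with granules that hold perforin and granzymes. B cells develop from the same lymphoid progenitors and normally leave most of these genes silent. At active promoters the DNA around the TSS is typically depleted of nucleosomes and flanked by well-placed -1 and +1 nucleosomes, whereas silent promoters often lack this gap. A nucleosome that is released by light digestion is called MNase-sensitive, and one that is recovered after heavy digestion MNase-resistant.

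The sequences upstream of 6 of these TSSs are shown because their promoters were among those of the highest and lowest light over heavy ratios (CTLA4 and PRF1) or of the largest differences between time points (GZMM, CD8A, LCK and CD247, the last pair at 20 min). Each runs 5′ to 3′ from -200 to -1 bp of the deposited TSS on the strand of the gene, in GRCh37, which is the same assembly as hg19. Capitals mark the motifs that were searched on both strands, namely TGTGGT for RUNX factors, AGGAAG or else CGGAAG for ETS factors, AGATAA for zinc finger factors such as GATA3, TATAAA for the core promoter box of that name, CAGCTG or else CAGGTG for E proteins, and TGGAAA for NFAT factors. The ETS and NFAT motifs share the letters GGAA, and neighbouring matches can run into each other, as in PRF1 and CD8A.
CTLA4 (chr2:204732311-204732510, plus strand): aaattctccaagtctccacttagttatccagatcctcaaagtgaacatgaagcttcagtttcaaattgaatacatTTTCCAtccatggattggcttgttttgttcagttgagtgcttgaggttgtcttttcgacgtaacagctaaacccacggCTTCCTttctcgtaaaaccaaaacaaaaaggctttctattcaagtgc
PRF1 (chr10:72362532-72362731, minus strand): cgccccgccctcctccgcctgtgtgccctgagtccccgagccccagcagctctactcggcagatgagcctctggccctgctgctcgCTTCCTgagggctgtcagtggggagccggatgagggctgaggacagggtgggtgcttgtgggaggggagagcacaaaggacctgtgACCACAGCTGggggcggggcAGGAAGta
GZMM (chr19:543834-544033, plus strand): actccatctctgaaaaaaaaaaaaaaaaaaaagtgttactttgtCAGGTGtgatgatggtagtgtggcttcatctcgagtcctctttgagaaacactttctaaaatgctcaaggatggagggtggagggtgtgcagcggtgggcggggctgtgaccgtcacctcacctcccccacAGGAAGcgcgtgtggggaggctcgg
CD8A (chr2:87018838-87019037, minus strand): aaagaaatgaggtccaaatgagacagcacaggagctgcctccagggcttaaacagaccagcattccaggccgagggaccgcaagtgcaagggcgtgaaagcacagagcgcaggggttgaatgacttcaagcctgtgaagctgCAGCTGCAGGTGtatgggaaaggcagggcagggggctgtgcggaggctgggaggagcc
LCK (chr1:32739512-32739711, plus strand): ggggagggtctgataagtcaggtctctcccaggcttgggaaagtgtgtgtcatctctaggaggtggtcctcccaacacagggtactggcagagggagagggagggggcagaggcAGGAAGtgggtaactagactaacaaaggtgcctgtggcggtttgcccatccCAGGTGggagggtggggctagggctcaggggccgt
CD247 (chr1:167487848-167488047, minus strand): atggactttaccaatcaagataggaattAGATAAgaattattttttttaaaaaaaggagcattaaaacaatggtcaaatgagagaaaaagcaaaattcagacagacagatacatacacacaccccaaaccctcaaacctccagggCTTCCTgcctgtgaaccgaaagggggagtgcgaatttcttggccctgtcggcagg

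The letters of the sensitive and the resistant promoter shown here differ in base composition. CTLA4, on the sensitive side, was 39% G or C and held 4 CpG, whereas PRF1, on the resistant side, was 68% with 8 CpG. Over the 37 T and NK lineage promoters the median GC content was 51%, from 29.5% at KLRK1 to 71.5% at CD8B, against 61% over all 21857 promoters, and the median CpG number was 3 against 12.

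The searched letters are those that lymphoid factors such as RUNX, ETS and E proteins bind, and each was counted from -200 to -1 bp. The RUNX letters TGTGGT were found in 10 of the 37 promoters, among them CD3D, CD3E, GZMA, GZMB, PRF1, NCR1 and KLRF1, against 8.13% of all promoters, and in 9 of 36 other T and NK promoters. AGGAAG was in 18 (48.6%) against 23.1% of all promoters, and 20 of 33 B cell promoters held it. The other ETS form, CGGAAG, was in 2 promoters (SH2D2A and KLRK1) against 15.2% of all promoters. CAGCTG was in 9 (24.3%) against 10.9%, TGGAAA in 8 (21.6%) against 12.6%, CAGGTG in 6 (16.2%) against 15.0%, AGATAA in 5 (13.5%) against 5.97% and TATAAA in 2 (CD96 and TXK, 5.41%) against 7.91% of all promoters. The 36 other T and NK promoters held AGGAAG in 14 (38.9%), CGGAAG in 3 (8.33%), CAGCTG in 4 (11.1%) and TGGAAA in 3 (8.33%). They held CAGGTG in 2 (5.56%), AGATAA in 6 (16.7%) and TATAAA in 7 (19.4%). Olfactory receptor promoters held TGGAAA and AGATAA in 24.3% each, more than the T and NK lineage promoters did. These are matches of letters, and the binding of any factor was not analysed here.

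The deposited TSS lay within 50 bp of an annotated GENCODE start of the same gene at 33 of the 37 promoters. At CD96 it lay 71 bp away, at CD3E 150 bp, at CD8A 410 bp and at TIGIT 721 bp, so the windows of these 4 genes are not centred on an annotated start. The 2 kb regions of the divergent CD3D and CD3G genes share 401 bp. The region of GATA3 shares 781 bp with that of GATA3-AS1, and the region of CD8B shares 1900 bp with that of the pseudogene ANAPC1P1.

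A deposited value is the number of centers of 140 to 200 bp fragments in a 60 bp window, scaled to sequencing depth (rpm), and values rise in steps from which fragment numbers were recovered. The tables rest on 9.43 to 10.5 M fragments in light digests and 3.27 to 7.04 M in heavy digests. Light over heavy was calculated as log2 of the mean rpm from -200 to 0 bp after 0.122 rpm was added to both values, and positive values mean MNase-sensitive. Because replicates are pooled, no spread between replicates can be given: the intervals of single promoters cover counting error only, a comparison of fragments is one between tables, and an effect of HKST and a different extent of digestion in a tube cannot be told apart. All HKST time points are set against the same untreated tables. The untreated heavy and both 20 min tables are used as far as they run, so 31 T and NK lineage promoters had values in the untreated, 40 min and 60 min tables, and 6 of these (LCK, CD2, CD247, GATA3, PRF1 and CD6) also at 20 min.

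The T and NK lineage promoters of untreated cells carried nucleosome-sized fragments across the TSS. The mean signal of both digests from -100 to 50 bp was close to the mean of the surrounding 2 kb: the median log2 of their ratio was -0.079 (order-statistic 95% interval over promoters, -0.68 to 0.28, n = 31). The same median was -1.85 over all 16114 promoters measured and -1.56 over 28 promoters of B cell genes. It was -0.64 over the olfactory receptor promoters and -0.38 over 32 promoters of other T and NK genes. Olfactory receptor genes were taken as a comparison assumed to be silent in this line, and expression was not analysed here. A depth of -1 or less, that is at least 2-fold less signal at the TSS than around it, was found at 8 of the 31 T and NK lineage promoters, against 62.6% of all promoters.

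**Figure D1:**
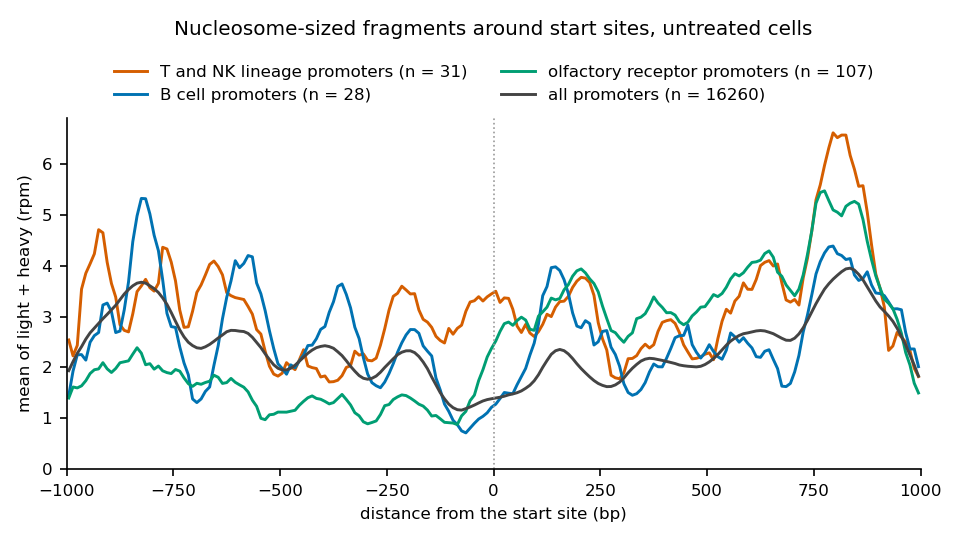
Mean sum of the light and heavy values (rpm) against distance from the TSS (bp) in untreated cells, for the T and NK lineage promoters, the promoters of B cell genes and of olfactory receptors, and all promoters. Just upstream of the TSS, where the curve of all promoters is lowest at 1.17 rpm (-75 bp) and that of the B cell promoters at 0.757 rpm (-65 bp), the curve of the T and NK lineage promoters has no trough; from there to 100 bp downstream it stays above its lowest point near the TSS, 2.15 rpm at -285 bp.

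The 8 promoters with a depth of -1 or less were those of TBX21 (-3.94), CD8B (-3.01), GZMA (-2.19), GATA3 (-1.61), PRF1 (-1.31), CD28 (-1.24), CD3E (-1.13) and GZMM (-1.06). CD8B rested on little data: 6 of the 20 bins upstream of its TSS had no value, the others held 1 light and 1 heavy fragment, and 1900 bp of its region are shared with ANAPC1P1. TBX21 encodes T-bet and GATA3 a zinc finger protein, the transcription factors that set opposing helper T cell programmes. The 200 bp upstream held 15 CpG at TBX21 and 16 at GATA3, against a median of 3 over the 37 promoters. At the other end stood ICOS, whose signal at the TSS exceeded that of its surroundings (2.02), followed by KLRD1 (1.22) and NKG7 (1.06). With HKST the median depth of the 31 promoters was -0.11 at 40 min and -0.28 at 60 min, within the interval of the untreated value.

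In untreated cells the -1 region of the T and NK lineage promoters ranged from clearly sensitive to clearly resistant, around a median like that of all promoters. The median log2 light over heavy was 0.13 (order-statistic 95% interval, -0.32 to 0.38, n = 31), and 18 promoters were above 0 and 13 below. The median was 0.12 over all 14546 promoters measured, 0.58 over 27 B cell promoters, 0.25 over 31 other T and NK promoters and 0.63 over 98 olfactory receptor promoters. A ratio of 1 or more was found at 2 T and NK lineage promoters (KLRD1 and CTLA4), against 13% of all promoters, and a ratio of -1 or less at 2 (PRF1 and CD7), against 8.92%.

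By counting error, 2 of the 31 were sensitive beyond an even ratio (KLRD1 and CTLA4), against 10.6% of all promoters, and 5 were resistant (CD3G, CD7, CD8A, PRF1 and ZAP70), against 11.8%. At 40 min of HKST 2 of 36 were sensitive (CD96 and ICOS), against 8.39%, and 6 resistant (CD3G, CD7, GZMM, PRF1, UBASH3A and ZAP70), against 9.19%. At 60 min, where the heavy table is the deepest of the heavy tables, 7 were sensitive (CD3E, CD96, ICOS, KLRB1, KLRD1, KLRF1 and SH2D2A), against 18.2%, and 10 resistant (CD3G, CD5, CD6, CD7, CD8A, GZMB, GZMM, LAT, NCR1 and ZAP70), against 15.8% of all promoters. CD3G, CD7 and ZAP70 were resistant beyond counting error at all 3 of these times. The share of all promoters that were so at all 3 is not reported here, so these 3 genes cannot be set against it.

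**Figure D2:**
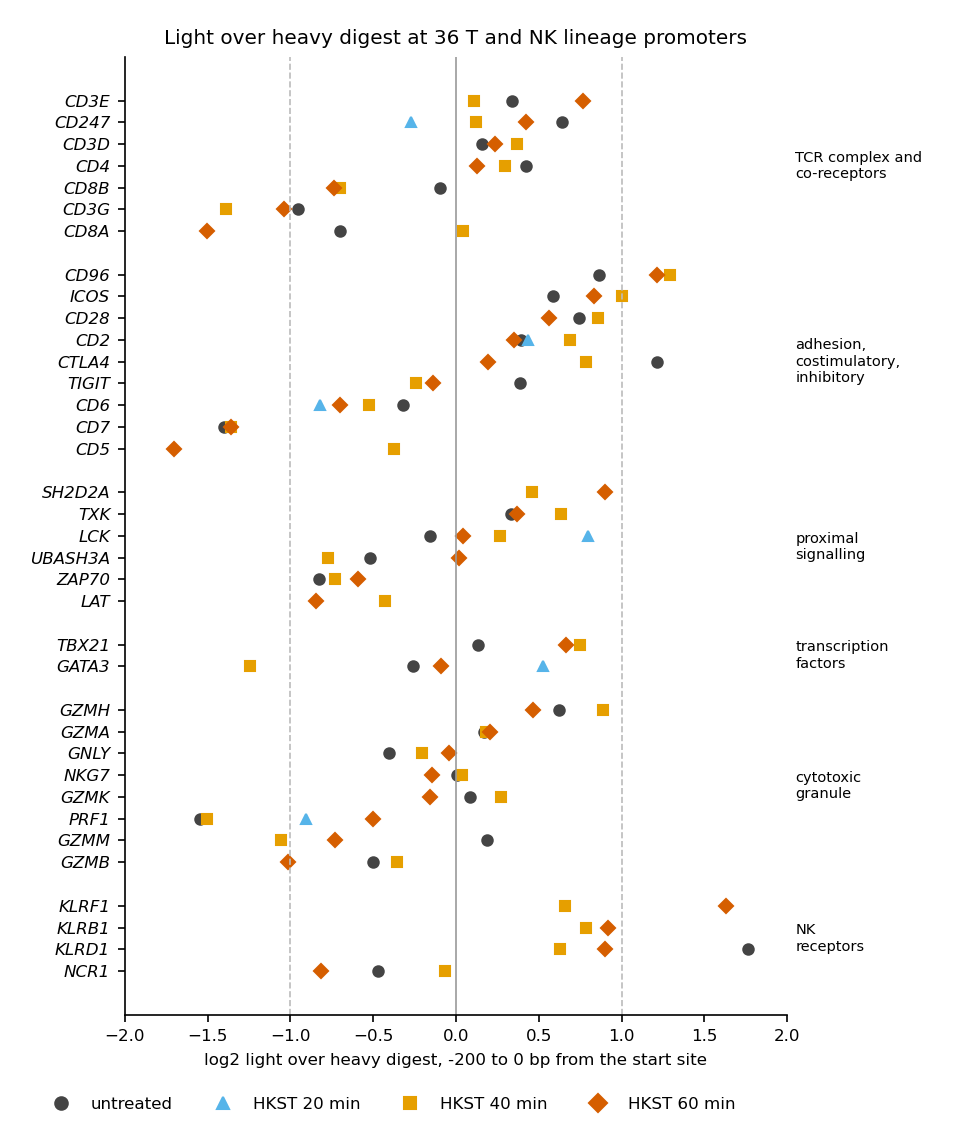
Log2 light over heavy from -200 to 0 bp (x axis) at 36 promoters (rows, grouped by role), in untreated cells (circles) and after 20 (triangles), 40 (squares) and 60 min (diamonds) of HKST; dashed lines mark -1 and 1. CD7, CD3G and ZAP70 sit below 0 at every time shown, CD96, ICOS and CD28 above 0, and CD8A lies at -0.70 in untreated cells, near 0 at 40 min and at -1.5 at 60 min.

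Most promoters lay on the same side of an even ratio in the untreated, 40 min and 60 min tables. Of 31, 14 were above 0 in the untreated, 40 min and 60 min tables and 10 below 0 in all of them, 77.4% together, against 64.3% of all promoters. The share was 56.7% of 30 other T and NK promoters, 55.6% of 27 B cell promoters and 69.1% of 97 olfactory receptor promoters. The 14 and 10 T and NK lineage promoters include CD8B, GATA3 and TBX21, which held under 10 fragments at 1 or more of the times. Without promoters of so few fragments, a limit set after the data were examined, 13 of 28 were above 0 and 8 below at all 3 times, 75% together, against 67.4% of all promoters. With the same limit the share was 57.1% of 28 other T and NK promoters, 55% of 20 B cell promoters and 68.1% of 72 olfactory receptor promoters. The 20 min tables are not part of these counts, and there CD247 (-0.27) and GATA3 (0.52) lay on the other side. Across the 31 promoters the untreated ratio had a Pearson's r of 0.78 with the 40 min ratio (Spearman's rho 0.80) and of 0.77 with the 60 min ratio (rho 0.80), against r = 0.59 and 0.67 over all promoters. These correlations are across promoters that share their tables and their base composition, and promoters are not replicates.

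The sensitive and the resistant T and NK lineage promoters differed in base composition. Across 31 promoters, GC content from -200 to -1 bp and the untreated ratio had r = -0.77 (rho -0.79), against r = -0.40 over all 14546 promoters. It was also seen over 31 other T and NK promoters (r = -0.62, rho -0.71) and over the olfactory receptor promoters (r = -0.52, rho -0.42). Over 27 B cell promoters it was weaker (r = -0.30, rho -0.24). In the T and NK lineage promoters r was -0.11 at 20 min (n = 6), -0.71 at 40 min and -0.71 at 60 min (n = 36 each). The 14 promoters above 51% GC had a median ratio of -0.44 and none exceeded 0.13 (TBX21), and the 17 others had a median of 0.39 and none was below -0.52 (UBASH3A). MNase cuts AT-rich DNA more readily, and the part of base composition in these ratios was not tested. For the HKST differences r with GC content was 0.015 at 40 min and 0.19 at 60 min (n = 31).

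**Figure D3:**
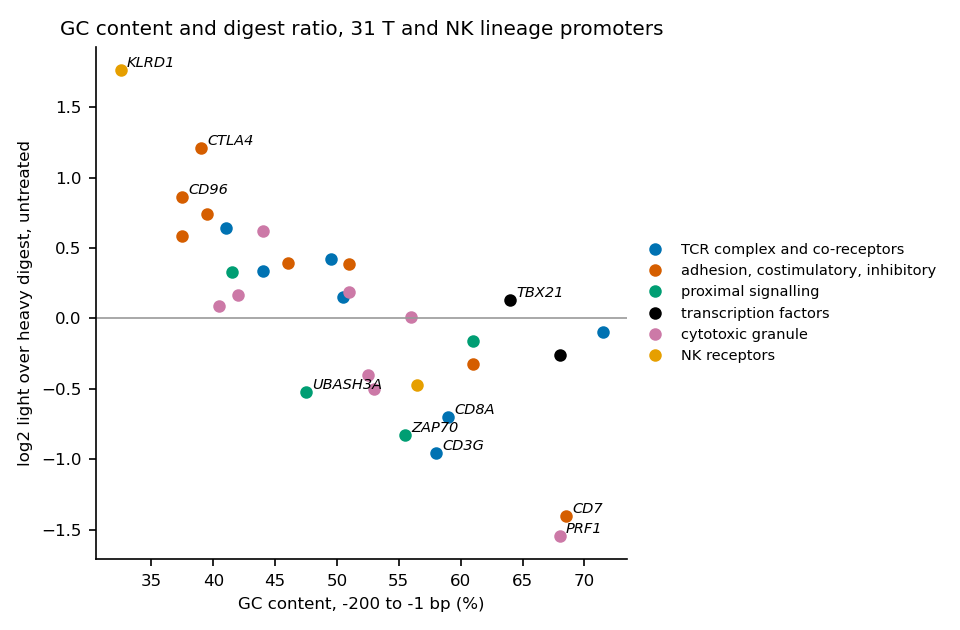
Log2 light over heavy in untreated cells (y axis) against the GC content of the 200 bp upstream of the TSS (%, x axis), 1 point per promoter, coloured by role. KLRD1 and CTLA4 lie at the AT-rich, sensitive end and PRF1 and CD7 at the GC-rich, resistant end; the 14 promoters above 51% GC do not exceed 0.13.

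Among the chains of the T cell receptor complex, CD3D and CD3G lie back to back and differed in state. CD3G, a signal-transducing chain of the receptor, had 1.54, 1.24 and 1.29 rpm in the light digests of the untreated, 40 min and 60 min samples and 3.10, 3.45 and 2.79 rpm in the heavy digests. Its ratio was -0.95, -1.39 and -1.04. CD3D had ratios of 0.16, 0.37 and 0.24 at the same times, each with an interval that included 0. These neighbouring promoters thus held a resistant and an undecided -1 region at each time, and neither -1 region lies in the stretch that both 2 kb regions share.

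CD3E, the third CD3 chain, had 1.56, 0.852 and 1.56 rpm in the light digests and 1.21, 0.782 and 0.869 rpm in the heavy digests. Its ratio was 0.34, 0.11 and 0.77 (interval at 60 min, 0.053 to 1.78). Its light value at 40 min, 23 fragments against 43 in untreated cells, was lower beyond counting error, with a log2 difference of -0.79 in rpm (-1.66 to -0.096 from fragments), and at 60 min it was level with that of untreated cells. CD4, the co-receptor for MHC class II, had ratios of 0.42, 0.30 and 0.13.

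The deposited TSS of CD8A, a chain of the co-receptor for MHC class I, lay 410 bp from the nearest annotated start of the gene. CD8A differed between the 40 and 60 min tables. It had 1.85, 1.77 and 0.823 rpm in the light digests of the untreated, 40 min and 60 min samples and 3.08, 1.72 and 2.56 rpm in the heavy digests. The ratio was -0.70, 0.041 and -1.5, so the 40 min value stands apart through its low heavy signal and the 60 min value through its low light signal. At 60 min against 40 min the ratio was lower by a log2 of -1.55 (exact conditional 95% interval, -2.73 to -0.59; 28 light and 60 heavy fragments at 60 min, 56 and 19 at 40 min). The heavy value at 40 min (-0.80, interval -1.67 to -0.055) and the light value at 60 min (-1.06, interval -1.85 to -0.48) were each lower than in untreated cells beyond counting error. CD8B, its partner chain, held 1 light and 1 heavy fragment in untreated cells and 6 of its 20 bins had no value, so its ratio could not be read.

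Of the adhesion and costimulatory genes, CTLA4 and CD28 encode the inhibitory and the activating receptor for the same B7 ligands, and lie with ICOS on chromosome 2. CTLA4 had 2.06, 1.51 and 1.51 rpm in the light digests of the untreated, 40 min and 60 min samples and 0.821, 0.825 and 1.31 rpm in the heavy digests. Its ratio was 1.21, 0.79 and 0.19, the last with an interval that included 0 (-0.47 to 0.89). CD28 was measured on few fragments, with 0.463, 0.407 and 0.524 rpm in the light and 0.228, 0.170 and 0.316 rpm in the heavy digests, and ratios of 0.74, 0.86 and 0.56. ICOS, the inducible costimulator, had ratios of 0.59, 1.00 and 0.84 and was sensitive beyond counting error at 40 and 60 min.

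CD96 and TIGIT encode receptors of nectin-like ligands. CD96 had 0.900, 0.907 and 0.962 rpm in the light digests of the untreated, 40 min and 60 min samples and 0.440, 0.298 and 0.345 rpm in the heavy digests. Its ratio was 0.86, 1.29 and 1.22, on 8, 3 and 8 heavy fragments. The differences from untreated cells had intervals that included 0, with 0.43 (-1.49 to 3.43) at 40 min and 0.35 (-1.26 to 2.36) at 60 min. TIGIT had 2.85, 2.45 and 2.41 rpm in the light and 2.15, 2.92 and 2.67 rpm in the heavy digests, and ratios of 0.38, -0.24 and -0.14. All 3 TIGIT intervals included 0.

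CD7, an immunoglobulin superfamily protein of T and NK cells, was the most steadily resistant of the adhesion genes. It had 0.552, 0.617 and 0.295 rpm in the light digests of the untreated, 40 min and 60 min samples and 1.66, 1.77 and 0.946 rpm in the heavy digests. The ratio was -1.40, -1.36 and -1.36, while both digests gave less signal at 60 min than at the earlier times. CD5, a scavenger-receptor family protein that restrains receptor signalling and is also made by some B cells, had ratios of -0.38 at 40 min and -1.70 at 60 min, on 16 light and 7 heavy fragments at 40 min and 8 and 25 at 60 min.

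Among the signalling genes, ZAP70, the kinase that docks on the phosphorylated receptor, was resistant at every time read. It had 2.16, 2.18 and 1.89 rpm in the light digests of the untreated, 40 min and 60 min samples and 3.94, 3.69 and 2.91 rpm in the heavy digests. Its ratio was -0.83, -0.73 and -0.59, and each interval lay below 0. UBASH3A, which damps receptor signalling, had 1.53, 1.37 and 1.69 rpm in the light and 2.25, 2.42 and 1.67 rpm in the heavy digests. Its ratio was -0.52, -0.77 and 0.016. TXK, a Tec-family kinase, had ratios of 0.33, 0.63 and 0.37, and the adaptor genes SH2D2A and LAT were on opposite sides at 60 min, with 0.90 and -0.85.

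The transcription factor genes had little signal upstream of the TSS in any table. TBX21 had 0.160, 0.253 and 0.0772 rpm in the light digests of the untreated, 40 min and 60 min samples and 0.136, 0.102 and 0.00395 rpm in the heavy digests. This rested on 2 to 7 light fragments and at most 2 heavy fragments, and its ratios of 0.13, 0.75 and 0.66 had intervals that reached far to both sides of 0.

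Of the cytotoxic granule genes, PRF1 encodes the pore-forming perforin and the granzyme genes the serine proteases that enter through it. In untreated cells GZMH, GZMA and GZMK had ratios of 0.62, 0.17 and 0.087, with intervals that included 0, and PRF1 was resistant. GZMM had 0.983, 0.949 and 0.827 rpm in the light digests of the untreated, 40 min and 60 min samples and 0.847, 2.11 and 1.45 rpm in the heavy digests. Its ratio was 0.19, -1.06 and -0.73. GZMB had ratios of -0.50, -0.35 and -1.02, and was resistant beyond counting error at 60 min. GNLY, which encodes the antimicrobial granulysin, had ratios of -0.40, -0.21 and -0.043. NKG7, a granule membrane protein, had the most fragments of the 37 promoters in untreated cells and ratios of 0.0084, 0.038 and -0.15.

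Of the NK receptor genes, KLRD1, KLRB1, KLRF1 and KLRK1 lie on chromosome 12 and encode CD94, CD161, NKp80 and NKG2D. KLRD1 had 1.77, 1.22 and 1.83 rpm in the light digests of the untreated, 40 min and 60 min samples and 0.434, 0.747 and 0.924 rpm in the heavy digests. Its ratio was 1.76, 0.63 and 0.90. KLRB1 and KLRF1 were also above 0, with 0.78 and 0.66 at 40 min and 0.92 and 1.63 at 60 min. Both intervals at 40 min included 0 (-0.0026 to 1.78 and -1.03 to 3.23), and KLRF1 held 3 heavy fragments at each of these times. NCR1, which encodes NKp46 on chromosome 19, had ratios of -0.47, -0.069 and -0.81. KLRK1 was hardly measured, because 11 of its 20 bins had no value.

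After 20 min of HKST the 6 promoters with values in every table differed from untreated cells in both directions, and none did so beyond counting error. The median difference from untreated cells in log2 light over heavy was 0.34 (-0.91 to 0.96, the full range of the 6), with 4 higher and 2 lower, and 0.14 over the 2485 promoters measured at both times. No T and NK lineage promoter was 2-fold higher or lower, against 13.2% of all promoters that were higher and 5.79% that were lower, and none was beyond counting error, against 1.93% higher and 1.89% lower.

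LCK, the Src-family kinase that phosphorylates the receptor chains, had 1.56, 1.74, 1.78 and 1.35 rpm in the light digests of the untreated, 20, 40 and 60 min samples and 1.75, 0.946, 1.46 and 1.31 rpm in the heavy digests. Its ratio of 0.80 at 20 min (61 light and 13 heavy fragments), against -0.16 in untreated cells (51 and 30), was the largest positive difference of the 6, with a log2 difference of 0.96 and an interval of -0.11 to 2.25. The heavy value alone was low at 20 min, with a log2 difference from untreated cells of -0.81 (-1.96 to 0.088), which was within counting error. CD247, the zeta chain of the receptor, had 1.96, 1.74, 2.02 and 2.53 rpm in the light and 1.21, 2.12, 1.85 and 1.86 rpm in the heavy digests. Its ratio of -0.27 at 20 min, against 0.64 in untreated cells, differed by -0.91 (-1.97 to 0.098). The heavy value of CD247 was higher at 20 min by a log2 of 0.75 (-0.082 to 1.66), also within counting error.

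CD2, the adhesion receptor for CD58, had 2.02, 1.53, 1.59 and 1.68 rpm in the light digests of the untreated, 20, 40 and 60 min samples and 1.5, 1.10, 0.940 and 1.29 rpm in the heavy digests. Both digests gave their highest value in untreated cells, and the ratio stayed at 0.39, 0.43, 0.69 and 0.35. CD6, a scavenger-receptor family protein that binds ALCAM, had 1.41, 1.28, 1.46 and 0.952 rpm in the light and 1.79, 2.35, 2.15 and 1.62 rpm in the heavy digests. Its ratio of -0.32, -0.82, -0.52 and -0.70 was below 0 at each time.

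PRF1 had 0.419, 0.507, 0.554 and 0.660 rpm in the light digests of the untreated, 20, 40 and 60 min samples and 1.46, 1.06, 1.80 and 0.984 rpm in the heavy digests. Heavy exceeded light at each time, and the ratio was -1.54, -0.91, -1.5 and -0.50. GATA3 had 0.329, 0.335, 0.141 and 0.333 rpm in the light and 0.418, 0.195, 0.501 and 0.363 rpm in the heavy digests. This rested on 4 to 11 light and 2 to 8 heavy fragments, and its ratio of -0.26, 0.52, -1.24 and -0.091 had an interval that included 0 each time.

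**Figure D4:**
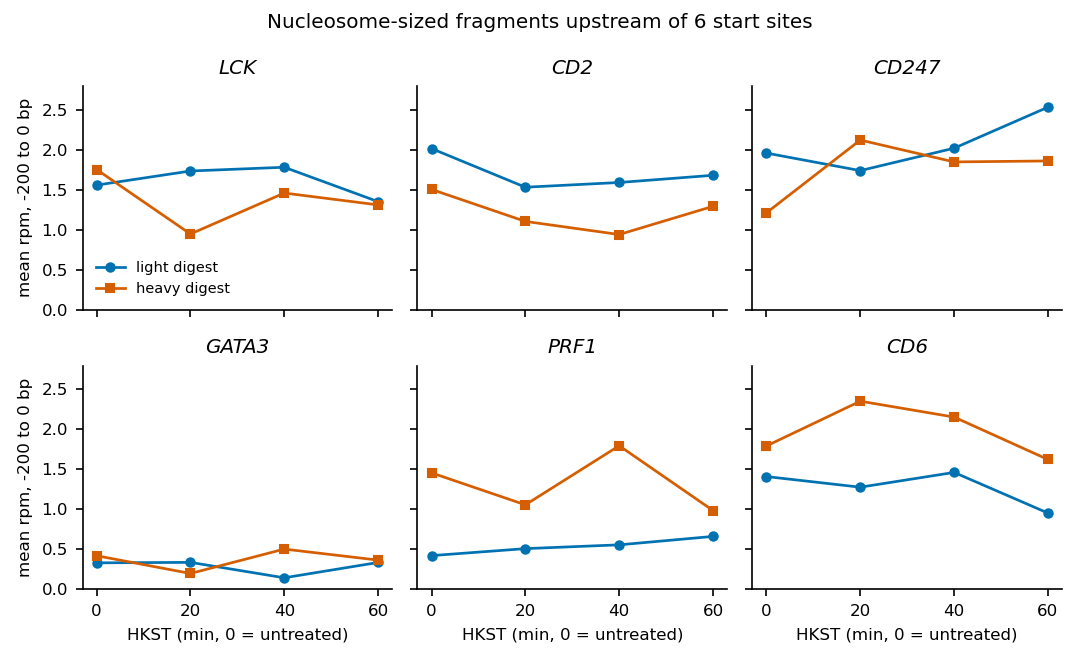
Mean rpm from -200 to 0 bp (y axis) in light (circles) and heavy (squares) digests against minutes of HKST (0 is untreated), for the 6 promoters with values in all 8 tables. Heavy exceeds light at PRF1 and CD6 at every time and light exceeds heavy at CD2; LCK and CD247 differ most from untreated in the heavy digest at 20 min, in opposite directions.

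At 40 min of HKST the T and NK lineage promoters had a median difference from untreated cells of 0.047 (-0.23 to 0.21, n = 31), with 19 higher and 12 lower, and all 14250 promoters measured had a median of 0.11. None was 2-fold higher, against 12.8% of all promoters, and GZMM and KLRD1 were 2-fold lower, against 6.22%. This split depended on the window, since 4 promoters were 2-fold higher and 2 lower in a window farther upstream. By counting error none was higher, against 1.63%, and 1 was lower, GZMM, against 1.4%.

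GZMM held 27 light and 21 heavy fragments at 40 min of HKST, against 29 and 13 in untreated cells, and its ratio was lower by a log2 of -1.25 (-2.79 to -0.025), which no longer held with a 99% interval or with fragments counted in non-overlapping windows. Its heavy value was higher on its own, with a log2 difference of 1.20 (0.27 to 2.46). KLRD1 held 35 light and 7 heavy fragments at 40 min of HKST, against 51 and 7 in untreated cells, and differed by -1.14 (-3.02 to 0.74). GATA3 (-0.98) and TIGIT (-0.63, interval -1.51 to 0.22) came next among the lower ones. The largest positive differences were those of CD8A (0.74, interval -0.20 to 1.79), TBX21 (0.62), CD96 (0.43) and LCK (0.43), each with an interval that included 0.

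At 60 min of HKST the median difference from untreated cells was -0.086 (-0.29 to 0.17, n = 31), with 14 higher and 17 lower, and all 14252 promoters measured had a median of 0.077. PRF1 was 2-fold higher, against 10.7% of all promoters, and CTLA4 2-fold lower, against 4.76%. This split depended on the setting too: in the window farther upstream 0 were higher and 4 lower, and with ratios centred on the median of all promoters 0 were higher and 1 lower. By counting error none was higher, against 2.3%, and 1 was lower, CTLA4, against 2.14%.

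CTLA4 held 51 light and 31 heavy fragments at 60 min of HKST, against 67 and 14 in untreated cells, and its ratio was lower by a log2 of -1.02 (-2.30 to -0.0060). Its interval ended just below 0, and a 99% interval included 0. PRF1 held 22 light and 23 heavy fragments at 60 min of HKST, against 14 and 25 in untreated cells, and differed by 1.04 (-0.21 to 2.58). GZMM (-0.92), KLRD1 (-0.86) and CD8A (-0.81, interval -1.77 to 0.022) were the next lower ones, and UBASH3A (0.54), TBX21 (0.53) and CD3E (0.43) the next higher ones, with intervals that included 0.

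**Figure D5:**
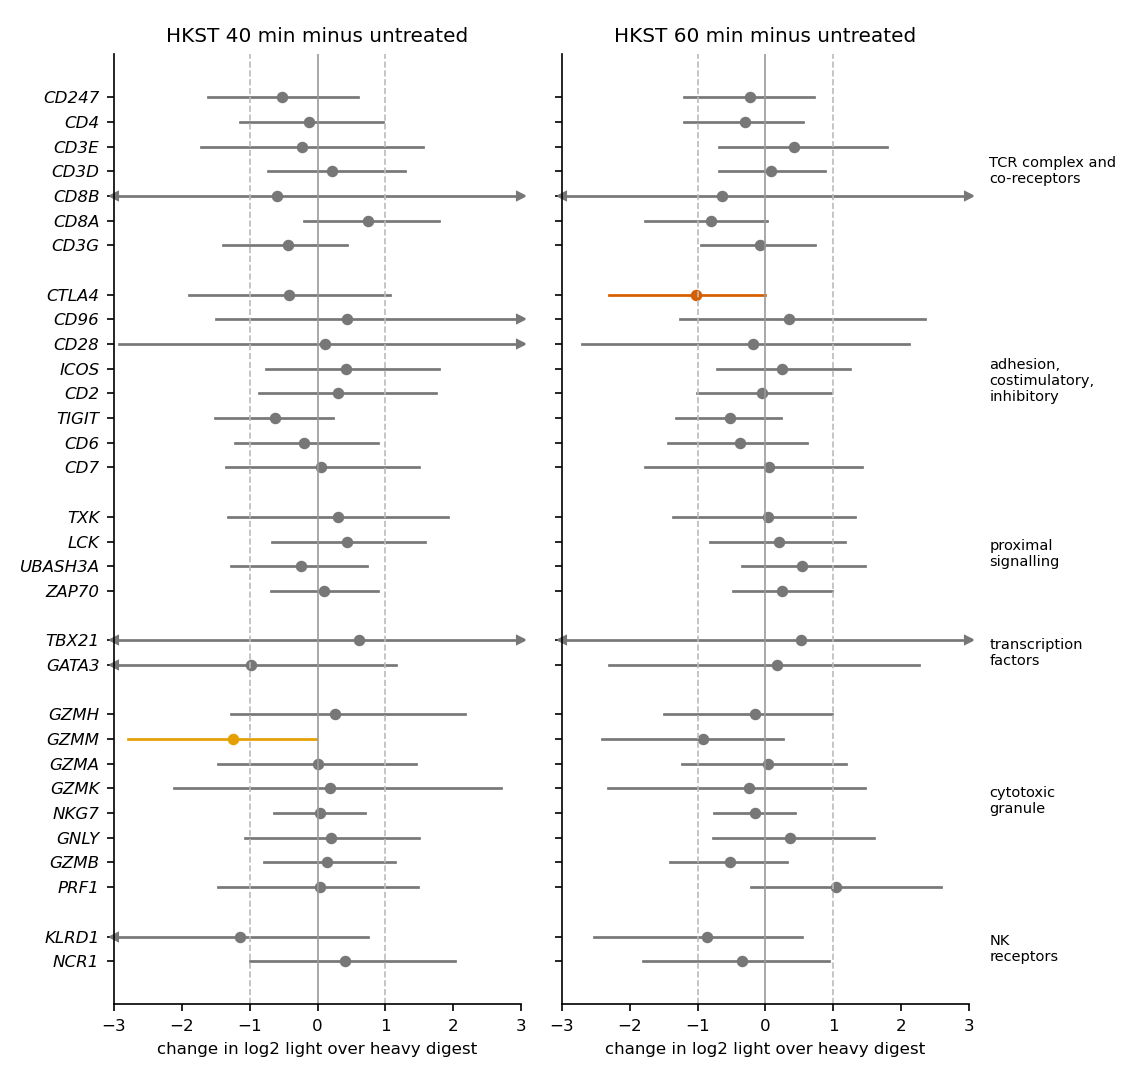
Difference in log2 light over heavy from -200 to 0 bp, HKST minus untreated (x axis), at 31 promoters grouped by role, after 40 min (left) and 60 min (right). Points are the differences and lines their exact 95% intervals from recovered fragments, with arrows where they run past 3; the coloured lines, GZMM at 40 min and CTLA4 at 60 min, are those that do not include 0.

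Between the HKST times themselves, 60 min against 40 min, the median difference was -0.081 (-0.23 to 0.14, n = 36) and that over all 19039 promoters -0.053. PRF1 and GATA3 were 2-fold higher, against 7.25% of all promoters, and CD8A and CD5 2-fold lower, against 8.33%. By counting error none was higher, against 1.35%, and 1 was lower, CD8A, against 1.91%.

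In single digests few T and NK lineage promoters differed from untreated cells. The light value differed beyond counting error at 1 of 36 at 40 min (CD3E), against 5.38% of all promoters, and at 1 of 36 at 60 min (CD8A), against 6.75%. The heavy value differed at 2 of 31 at 40 min (GZMM higher and CD8A lower), against 2.86%, and at none of 31 at 60 min, against 4.79%. CD8A was the gene found in both digests.

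By role, the median difference from untreated cells lay between -0.37 (NK receptors, n = 2) and 0.20 (signalling, n = 4) at 40 min of HKST and between -0.60 (NK receptors) and 0.35 (transcription factors, n = 2) at 60 min. Apart from GZMM at 40 min and CTLA4 at 60 min, the interval of every promoter in these groups included 0.

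Downstream of the TSS, from 50 to 250 bp, the T and NK lineage promoters were on the lower side at 60 min. The median difference in log2 light over heavy at 60 min of HKST was -0.33 (-0.56 to 0.016, n = 31), with 10 higher and 21 lower, against a median of 0.015 over all promoters, -0.36 over 30 other T and NK promoters and -0.40 over the olfactory receptor promoters. At 40 min it was -0.12 (-0.41 to 0.18), with 13 higher and 18 lower. ICOS (-1.41) and CTLA4 (-1.02) differed most at 60 min and were the 2 promoters at -1 or less, against 813 of all 14241. Intervals from fragments were not calculated for this window.

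Over the whole 2 kb the difference at 60 min of HKST was small and mostly in 1 direction. The median was -0.092 (-0.13 to -0.037, n = 31), with 8 promoters higher and 23 lower, against 0.0061 over all 16169 promoters, 0.035 over 28 B cell promoters, -0.090 over 32 other T and NK promoters and -0.30 over the olfactory receptor promoters. The lowest values were those of CD28 (-0.66), TXK (-0.43) and NCR1 (-0.42), and the highest those of GATA3 (0.44) and CD7 (0.32). At 40 min the median was -0.049, with 13 higher and 18 lower. The extent of digestion was not measured apart from these tables, and its part in this difference was not tested.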

How the data were processed

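The authors clipped adapters, aligned read pairs to hg19 and kept those that were paired and unique; Bowtie2 2.2.2, SAMtools and bedtools stand in the submitters' processing notes. Centers of fragments of 140 to 200 bp were counted in windows of 60 bp, moved by 10 bp, and the deposited rpm tables pool 2 replicates. Where in its window a value is placed is not given in the sources used here.

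The deposited rpm values rise in steps, and a step was taken to be worth 0.5 of a fragment. The fragment numbers and the intervals rest on this assumption. Of the low values 100% lay within 0.05 of a whole step, which gave depths and fragment numbers, and a fragment enters 6 windows. A region needed values in 10 of its 20 bins. Bins without a value made up 9.90% over the 2801 promoters found in all 8 tables. The incomplete last line of 3 tables was left out.

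Intervals of a difference were exact and conditional on the recovered fragments, and those of a ratio were Clopper-Pearson, all at 95%. Fragments carry no molecular identifiers, so the intervals cover counting error only. The code was tested on simulated data. A count test across samples was not run, because each table is a pool.

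Members and lists were chosen with earlier results of these data known. Values in every table were given for members found in all 8 tables, for the 4 highest and 4 lowest untreated ratios and for the 4 largest positive and negative differences at 40 and 60 min; members named for other reasons were picked once their values were known. Alternatives were other pseudocounts, windows, filters, centrings and limits. The work used Python 3.11.15 with numpy 2.4.6, scipy 1.17.1 and matplotlib 3.10.9, and GENCODE annotation on GRCh37. Some upstream sequences are not reported here.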

Additional observations from a re-analysis of the deposited data

How the results depend on the processing

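No paired analysis was possible because each table pools both replicates; for the same reason no replicate could be left out. The median untreated ratio, the median differences at 20, 40 and 60 min and the median depth at the TSS stayed within the interval given with each of them under every alternative pseudocount, centring, window, filter, digest and summary tried, and except for the depth each of these medians changed sign under at least 1 of them (the untreated ratio was -0.044 from summed values). Accepting a window with at least 1 bin with a value was added after the data were examined and changed none of these medians. Counts of single promoters depended on the setting. With a 1.5-fold limit, 7 promoters were past it at 40 min (2 higher, 5 lower) and 6 at 60 min (1 higher, 5 lower), where the 2-fold limit gave 2 (0 higher, 2 lower) and 2 (1 higher, 1 lower); with a pseudocount of 0.5 of the mean there were 0 and 0, with the planned window farther upstream 6 (4 higher, 2 lower) and 4 (0 higher, 4 lower), and with ratios centred on the median of all promoters 3 (all lower) and 1 (lower). By counting error, a 99% interval left 0 at 40 min and 0 at 60 min, so neither GZMM nor CTLA4 remained. Fragments from non-overlapping windows left 0 at 40 min and 1 at 60 min, and a depth ratio centred on all promoters gave 2 at 60 min. The heavy tables limit these comparisons: most members held under 60 heavy fragments per window, and CD8B, KLRK1, TBX21 and GATA3 too few to read.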
